A study of Homo sapiens with 8 samples.

Results

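The vault RNAs and Y RNAs are 2 families of short non-coding RNA that RNA polymerase III transcribes. The members described here are every entry of the deposited expression table whose symbol is a vault RNA (VTRNA1-1, VTRNA1-2, VTRNA1-3 and VTRNA2-1) or a Y RNA (RNY1, RNY3, RNY4 and RNY5), 8 of 26902 entries. Membership was set by symbol and not by a measured value, though the families were chosen with earlier results of these data known. The study asked how QKI7, 1 of the proteins made from the RNA-binding QKI gene, affects translation efficiency. It used U2OS, an established human osteosarcoma cell line, carrying either an empty vector or QKI7 overexpression. Cells of both constructs, controls included, received 0.5 mM sodium arsenite (NaAsO2), an oxidative stressor that blocks translation initiation, for 1 h before harvest, so no unstressed sample enters any comparison. From each construct, input RNA and ribosome footprints (fragments of 17 to 34 nt recovered after ultracentrifugation) were sequenced, which gives 4 groups of 2 libraries each, an input and a footprint group per construct. The labels do not tell whether both libraries of a group are separate cultures, and the p-values then cover only library-to-library spread, possibly technical.

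Vault RNAs are named for the vault, a large hollow ribonucleoprotein particle whose shell is built of the major vault protein MVP, with TEP1 and PARP4 inside. Much of the vault RNA of a cell lies outside the particle. VTRNA1-1 binds the autophagy receptor SQSTM1, VTRNA2-1 (also called nc886) binds the stress kinase PKR, and vault RNAs can be cut into shorter fragments, some of them by DICER1. Y RNAs fold into a stem with a large loop, bind the Ro60 and La proteins, take part in RNA quality control and in the start of DNA replication, and are cut into fragments in stressed and dying cells. None of the members codes for a protein. A footprint value of a member is therefore the abundance of its fragments in the footprint size range, not a measure of translation.

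VTRNA1-1, VTRNA1-2 and VTRNA1-3 lie within 14971 bp of chromosome 5 (RefSeq, GRCh38.p14). VTRNA1-1 has 98 nt at chr5:140711276-140711373, VTRNA1-2 has 88 nt at chr5:140718926-140719013, and VTRNA1-3 has 88 nt at chr5:140726159-140726246. The nearest protein-coding genes are ZMAT2, which ends 4590 bp before VTRNA1-1, and PCDHA1, which begins 59894 bp after VTRNA1-3. All 3 lie inside the annotated long non-coding RNA LOC105378198, which was not analysed here. The sources used here do not give the strand setting of the counting, so reads of that overlapping gene cannot be told apart from theirs. VTRNA2-1 has 108 nt at chr5:136080491-136080598, between TGFBI and SMAD5. The 4 Y RNA genes lie within 45761 bp of chromosome 7, between EZH2 and PDIA4, and overlap no other annotated gene. RNY5 (84 nt) is at chr7:148941488-148941571, RNY4 (96 nt) at chr7:148963315-148963410, RNY3 (102 nt) at chr7:148983755-148983856, and RNY1 (113 nt) at chr7:148987136-148987248. RefSeq lists 75 Y RNA pseudogenes and 2 vault RNA pseudogenes, none of which was analysed here. Reads that match such a copy, or several family members, could have been shared out in the authors' estimates, and the values of single members are uncertain to that extent.

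Values are TPM, transcripts scaled to a fixed sum in each library and estimated per length by the authors. They cannot tell fewer cells from less RNA per cell. Recovery of RNAs this short in each library type was not measured. Orders of members and ratios of footprints to inputs therefore describe the deposited values only. Spike-in control RNA took 13.9% and 14.5% of the TPM of vector and QKI7 inputs, against 0.0011% and 0.0012% of that of their footprints. Read depth is unknown, and a gene with a value of 0 is described only as listed at 0. Ribosomal RNA took 97.3% ± 0.0134 (SD, n = 2) of the TPM of vector footprints and 96.8% ± 0.0404 (SD, n = 2) of those of QKI7 footprints, against 0.0277% ± 0.00180 and 0.0749% ± 0.0395 (SD, n = 2) in vector and QKI7 inputs. QKI itself was at 3.01 and 3.45 TPM in the vector inputs and at 1748.86 and 1579.91 TPM in the QKI7 inputs, in the direction of the labels. Of 7 bone and mesenchymal markers, 5 reached 1 TPM in the inputs, where they summed to 141 to 154 TPM. None of the 5 blood, 4 epithelial and 4 neural markers reached 1 TPM, and the highest sum of any of these lists in an input was 1.44 TPM.

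In the inputs, VTRNA1-1 was the 1 member with more than 1 TPM. It stood at 12.63 and 14.79 TPM in the vector libraries and at 12.69 and 11.39 TPM in the QKI7 libraries, and these groups overlapped. VTRNA1-2, its neighbour in the cluster, was at 0.79 and 0.61 TPM with vector and at 0.69 and 0.27 TPM with QKI7. VTRNA1-1 thus made up 93.2% ± 0.481 (SD, n = 2) of the vault RNA signal of vector inputs and 95.1% ± 3.67 (SD, n = 2) of that of QKI7 inputs. VTRNA1-3 was listed at 0 in 3 of the 4 inputs, with 0.34 TPM in QKI7 replicate 1. VTRNA2-1 was at 0.18 and 0.41 TPM in the vector inputs and listed at 0 in both QKI7 inputs.

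All 4 Y RNAs were near or at 0 in the inputs. RNY4 was at 0.22 and 0.26 TPM in the vector inputs and listed at 0 in both QKI7 inputs. RNY3 was at 0.20 and 0 TPM with vector and at 0.51 and 0 TPM with QKI7, while RNY1 appeared only in QKI7 replicate 1, at 0.43 TPM. RNY5 was listed at 0 in all 4 inputs. Below VTRNA1-1, the order of the members in the inputs was not settled: in the vector inputs the values of VTRNA1-2 (lowest 0.61 TPM) stood above those of every member but VTRNA1-1, while in the QKI7 inputs its values overlapped those of RNY3, RNY1 and VTRNA1-3.

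The order was different in the footprints, and most neighbours in it were apart. VTRNA1-2 led, at 496.78 and 524.21 TPM in vector footprints and 612.74 and 621.86 TPM in QKI7 footprints. VTRNA1-1 followed at 370.17 and 378.32 TPM with vector and 560.38 and 510.39 TPM with QKI7, below VTRNA1-2 in every library. VTRNA1-3 came next, with 53.62 and 55.59 TPM in vector and 55.15 and 59.83 TPM in QKI7 footprints. In each construct the values of these 3 vault RNAs did not overlap one another. Among 26882 entries other than ribosomal RNA, VTRNA1-2 ranked 4 and VTRNA1-1 ranked 11 by mean in vector footprints, and they ranked 6 and 8 in QKI7 footprints. VTRNA2-1 was listed at 0 in all 4 footprints, unlike the other 3 vault RNAs.

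The Y RNAs had far lower footprint values than the 3 VTRNA1 genes. RNY4 had 13.22 and 10.96 TPM with vector, 14.26 and 14.36 TPM with QKI7. RNY5 was at 7.08 and 8.85 TPM with vector and at 9.01 and 12.75 TPM with QKI7. RNY1 was at 1.66 and 4.56 TPM with vector and at 1.93 and 3.71 TPM with QKI7. RNY4, RNY5 and RNY1 kept this order in both constructs with no overlap between neighbours. RNY3 had the lowest Y RNA footprint values, 0.81 and 0.52 TPM with vector and 1.26 and 0.65 TPM with QKI7, without overlap with RNY1. RNY4 made up 51.0% ± 9.92 (SD, n = 2) of the Y RNA signal in vector footprints and 49.8% ± 5.84 (SD, n = 2) in QKI7 footprints, followed by RNY5 with 33.3% ± 3.16 and 37.3% ± 4.57.

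**Figure D1:**
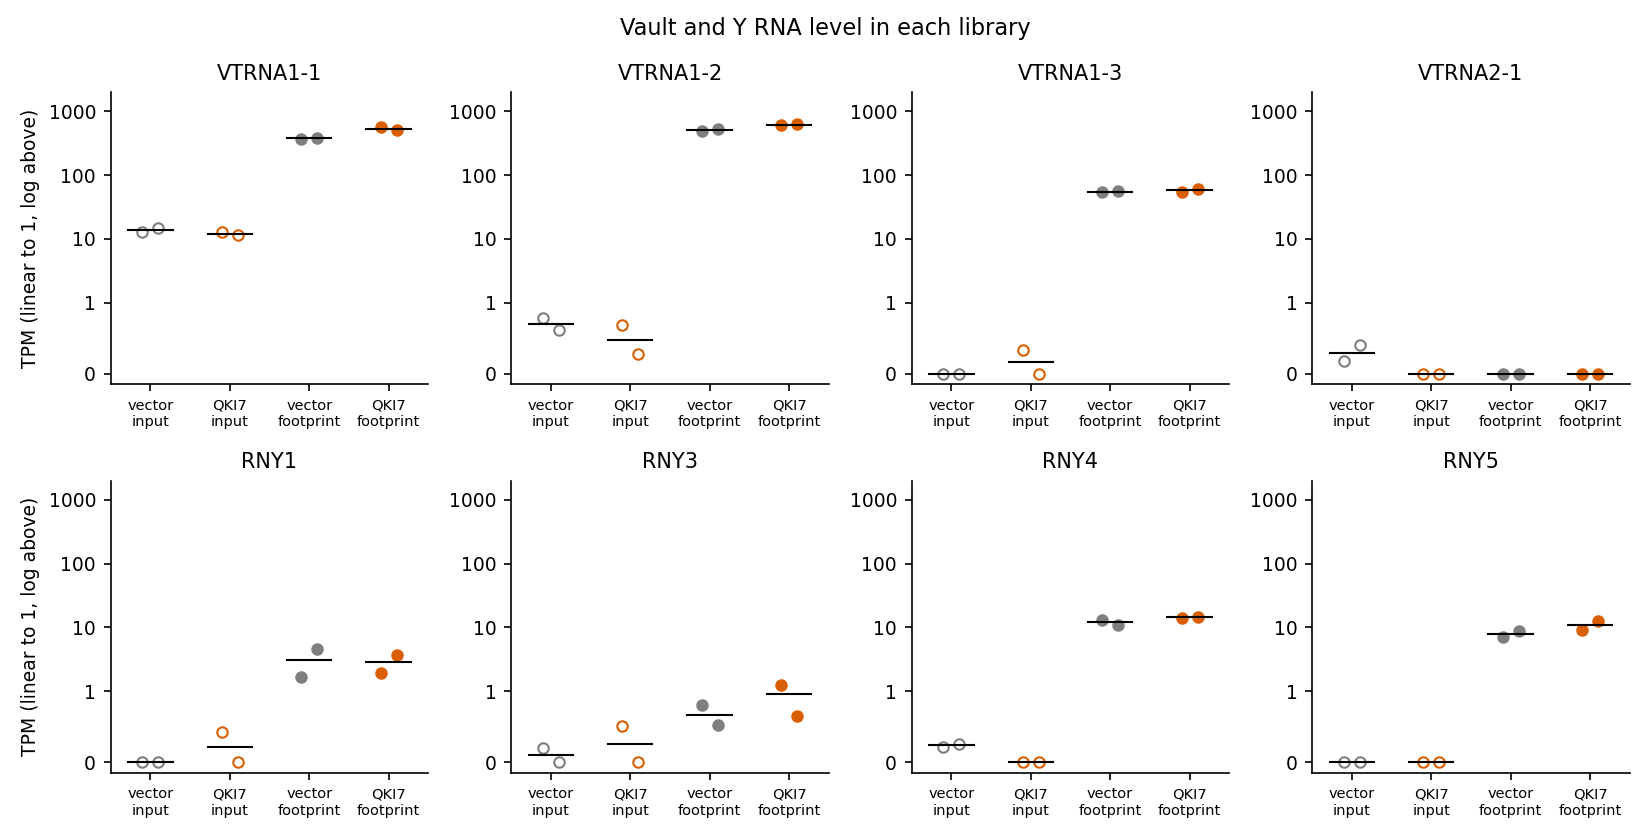
TPM of each of the 8 vault and Y RNAs in each of the 8 libraries, by group (vector input, QKI7 input, vector footprint, QKI7 footprint), on an axis that is linear up to 1 TPM and logarithmic above it, with points for libraries and bars for group means. VTRNA1-1 and VTRNA1-2 lie above 370 TPM in every footprint library, the Y RNAs below 15 TPM, and VTRNA1-1 is the only member above 1 TPM in an input.

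Footprint and input libraries were compared within each construct, on the scale log2(TPM + 1), which understates the change of low genes. The test was limma's moderated test with Benjamini-Hochberg adjustment over the 5806 entries that averaged 1 TPM or more, called at an adjusted p under 0.05. VTRNA1-1, VTRNA1-2, VTRNA1-3, RNY1, RNY4 and RNY5 entered it. RNY3 and VTRNA2-1 stayed below that mean. The 5 members other than VTRNA1-1 entered through their footprint values alone, so a footprint excess among them had to follow, and their count is given as a description.

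The 3 VTRNA1 genes were higher in footprints than in inputs by a wide margin. In vector cells the means of VTRNA1-1 were 374 ± 5.76 TPM in footprints and 13.7 ± 1.53 TPM in inputs (SD, n = 2 each), a ratio of 27.3 and a difference of 4.68 on the log2 scale (SE 0.110; limma adjusted p = 9.02e-10). With QKI7 the same RNA had 535 ± 35.3 TPM in footprints and 12.0 ± 0.919 TPM in inputs (SD, n = 2 each), a ratio of 44.5 and a log2 difference of 5.36 (limma adjusted p = 4.89e-10). VTRNA1-1 is the member for which both sides of this ratio are well above 0.

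For VTRNA1-2 the log2 difference was 8.23 with vector and 8.72 with QKI7, over an input mean under 1 TPM. For VTRNA1-3, at or near 0 in inputs, it was 5.80 with vector and 5.66 with QKI7. Among the Y RNAs the difference was 3.39 and 3.94 for RNY4, 3.16 and 3.55 for RNY5, and 1.94 and 1.64 for RNY1 (vector and QKI7 in that order). No p is given for these 5 members, whose footprint excess the filter required. VTRNA1-1 was called higher in both constructs, as were the 5, where 7.7% of all entries tested were called higher and 89.9% lower with vector, and 7.42% higher and 90.8% lower with QKI7. Counting all 8 members, 7 had every footprint library above every input library in each construct. Among entries tested, 8.15% did with vector and 7.77% with QKI7. The filter required a footprint excess of 5 of these 7 members, and RNY3 was not tested, so the count only describes the values. VTRNA2-1 was the exception: its vector footprints, both at 0, lay below its vector inputs, as 90.4% of entries tested did.

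The share of entries called higher in footprints moved with the scaling. The median difference of all entries tested was -1.81 with vector and -1.97 with QKI7, and it was 0.49 and 0.28 when ribosomal RNA was taken out and the rest rescaled, a setting chosen after seeing the data. The calls with vector were 447 higher and 5220 lower as deposited, 2849 higher and 1348 lower with ribosomal RNA out. VTRNA1-1 was called higher in footprints under all 18 alternatives in both constructs, but the size of its difference moved with the scaling. With vector it went from 4.68 as deposited to 7.18 with equal sums of mRNA and long RNA, 8.86 with median-of-ratios scaling and 9.90 with ribosomal RNA out. With QKI7 it went from 5.36 to 8.06, 9.48 and 10.33 under the same settings.

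Other classes of small RNA set the members in context. In vector cells 115 of 156 small nucleolar RNAs were called higher and 17 lower in footprints, with a median log2 difference of 2.00. Of 34 microRNA precursors, 12 were called higher and 16 lower, with a median of -0.90. The other RNA polymerase III transcripts, a list of 15 of which 12 were tested, gave 2 higher and 7 lower with vector: the 5S ribosomal RNA genes RNA5S1 (12.20) and RNA5S9 (11.10) were higher, and RN7SL1 (-9.84) and RN7SL2 (-9.91), the RNA of the signal recognition particle, were lower. The other 5 lower entries of that list were RN7SK, which restrains transcription elongation, the ribonuclease RNAs RMRP and RPPH1, BCYRN1 and RNU6ATAC. VTRNA1-1 and RN7SL1 are both abundant enough in inputs to give a ratio, and these were 27.3 for VTRNA1-1 and 0.00108 for RN7SL1 in vector cells.

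**Figure D2:**
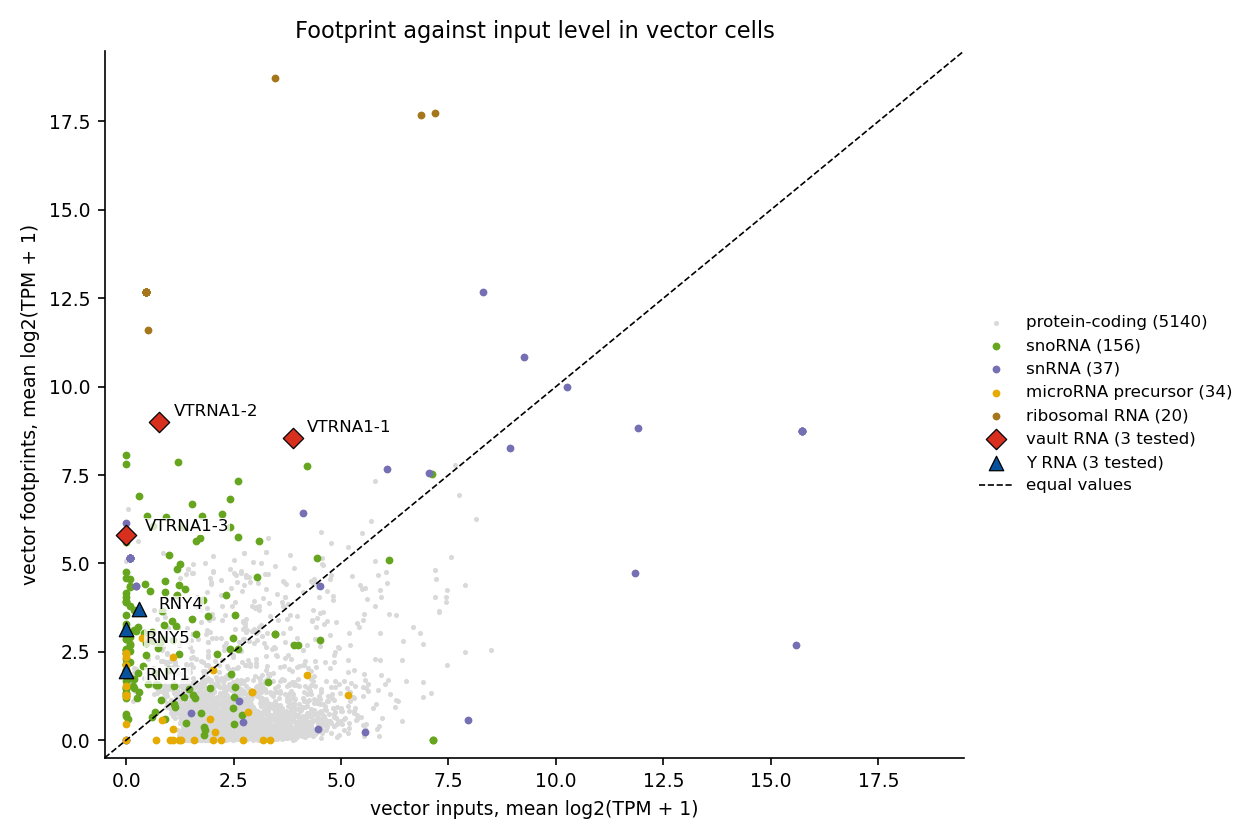
Mean log2(TPM + 1) of the vector inputs (horizontal) against that of the vector footprints (vertical), 1 point per entry tested, in the classes shown (long non-coding and unclassed entries are left out), with the line of equal values dashed. The 3 vault RNAs and 3 Y RNAs tested lie above the line, where 7.7% of all entries tested were called higher, and VTRNA1-1 stands apart from the left edge.

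QKI7 and vector footprints were compared next. VTRNA1-1 rose with QKI7 overexpression, from 374 ± 5.76 to 535 ± 35.3 TPM (SD, n = 2 each), a ratio of 1.43. The change was 0.51 on the log2 scale (SE 0.110; 95% interval 0.26 to 0.77; limma adjusted p = 0.0270), and both QKI7 footprints lay above both vector footprints. It was the 1 member of 6 tested that was called, where 8.2% of all entries were called, 3.6% higher and 4.6% lower. The call was lost without any 1 of the 4 footprint libraries, with limma adjusted p of 0.123 and 0.106 without vector replicates 1 and 2 and of 0.149 and 0.0566 without QKI7 replicates 1 and 2, while the change stayed between 0.45 and 0.58. In each such fit the lone library left in a group is assumed to vary like the other groups, also in the values without 1 library given from here on. With ribosomal RNA taken out the change was 0.27 (limma adjusted p = 0.0757).

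**Figure D3:**
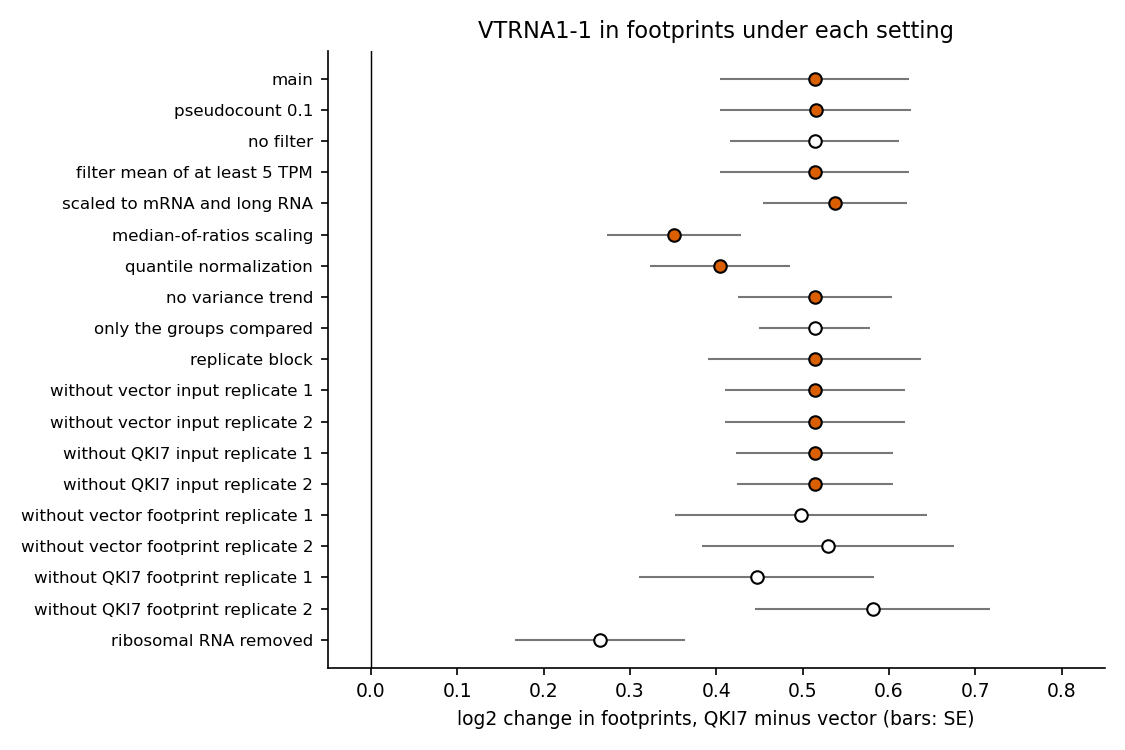
Log2 change of VTRNA1-1 between QKI7 and vector footprints under the main setting and each alternative, with bars for the SE from limma and filled points where the adjusted p was under 0.05. The change is positive under all 18 alternatives, from 0.27 to 0.58, and 11 of them call it.

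The other 5 members tested did not pass the threshold. VTRNA1-2 had a log2 change of 0.27 (95% interval -0.04 to 0.59; limma adjusted p = 0.347) and a ratio of means of 1.21, and both QKI7 footprints lay above both vector footprints. Its sign turned under quantile normalization, to -0.32. VTRNA1-3 had a change of 0.07 (95% interval -0.22 to 0.37; adjusted p = 0.937), its groups overlapped, and its sign turned under 3 scalings, to -0.09 with median-of-ratios scaling, -0.34 with quantile normalization and -0.18 with ribosomal RNA out.

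Among the Y RNAs, RNY4 had a change of 0.23 (95% interval 0.04 to 0.42; limma adjusted p = 0.164) and RNY5 of 0.40 (95% interval 0.06 to 0.73; adjusted p = 0.173), both with higher values in each QKI7 footprint than in each vector footprint. Each passed the threshold when 1 library was left out: RNY4 without vector footprint replicate 1 (0.36, adjusted p = 0.0400) and RNY5 without QKI7 footprint replicate 1 (0.62, adjusted p = 0.0260). Neither was called under any other alternative, and with ribosomal RNA out the change was 0.00 for RNY4 and 0.19 for RNY5. RNY1 had a change of -0.05 (95% interval -0.85 to 0.75; adjusted p = 0.991), with overlapping groups. RNY3, untested, overlapped as well. In all, 4 of the 8 members, each of them tested, had footprints that were higher with QKI7 without overlap, where 30.4% of entries tested did. The median change of the 6 tested was 0.25 against 0.01 for all entries tested, on a scale that shrinks changes of low entries. With ribosomal RNA out the median of all entries tested was -0.10.

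Several other short RNA classes also moved in the QKI7 footprints. Of 156 small nucleolar RNAs, 64 rose and 1 fell, with a median log2 change of 0.61, and of 37 small nuclear RNAs, 17 rose and 2 fell, with a median of 0.50. VTRNA1-1, with its 0.51, lay between these medians. From the list of other RNA polymerase III transcripts, 4 of 12 tested rose and none fell, with a median of 0.31: RN7SL1 from 173 to 319 TPM (log2 change 0.88; limma adjusted p = 0.00135), RN7SK from 25.7 to 44.9 TPM (0.78; adjusted p = 0.00410), and the U6 spliceosomal RNA copies RNU6-2 and RNU6-9. RNU6-2 and RNU6-9 had identical values in every library, so they are 1 signal counted as 2 entries. RNU6-1, another U6 copy, went from 85.49 and 84.08 TPM to 58.37 and 8.33 TPM (-1.87; adjusted p = 0.497). U6 copies could share reads, so which copy the values belong to is uncertain. The non-ribosomal part of the footprint TPM was itself larger with QKI7, at 3.18% ± 0.0404 against 2.67% ± 0.0134 (SD, n = 2 each), and its part in these changes was not tested beyond the rescaling above.

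In the footprints the share of the vault RNA signal did not overlap between constructs for any of the 3 VTRNA1 genes. These shares are parts of 1 sum, so they are not separate results. A two-sided exact permutation test gave p = 0.333 for the VTRNA1-1 share and for the VTRNA1-3 share. That is the lowest value it can give with 2 libraries against 2. Vault RNA summed to 920.57 and 958.12 TPM in vector footprints and to 1228.27 and 1192.08 TPM in QKI7 footprints, a ratio of means of 1.29. As a share of all TPM other than ribosomal RNA, it was 3.43% and 3.59% with vector and 3.90% and 3.72% with QKI7, a ratio of 1.08. VTRNA1-1 held 39.8% ± 0.513 of the vault signal with vector and 44.2% ± 1.99 with QKI7, VTRNA1-2 held 54.3% ± 0.529 and 51.0% ± 1.61, and VTRNA1-3 held 5.81% ± 0.0160 and 4.75% ± 0.374 (SD, n = 2 each).

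The ratio of VTRNA1-1 to VTRNA1-2 within a library is untouched by a linear rescaling of libraries. It was 0.745 and 0.722 in vector footprints and 0.915 and 0.821 in QKI7 footprints, so the groups did not overlap. With 2 libraries against 2, a two-sided exact permutation test cannot go below p = 0.333, the value it gave for this ratio. In inputs the same ratio was 16.0 and 24.2 with vector and 18.4 and 42.2 with QKI7, over VTRNA1-2 values under 1 TPM. The summed Y RNA signal was 22.77 and 24.89 TPM in vector footprints and 26.46 and 31.47 TPM in QKI7 footprints, a ratio of means of 1.22, and its share of the TPM other than ribosomal RNA was 0.0891% ± 0.00600 and 0.0910% ± 0.0100 (SD, n = 2 each).

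**Figure D4:**
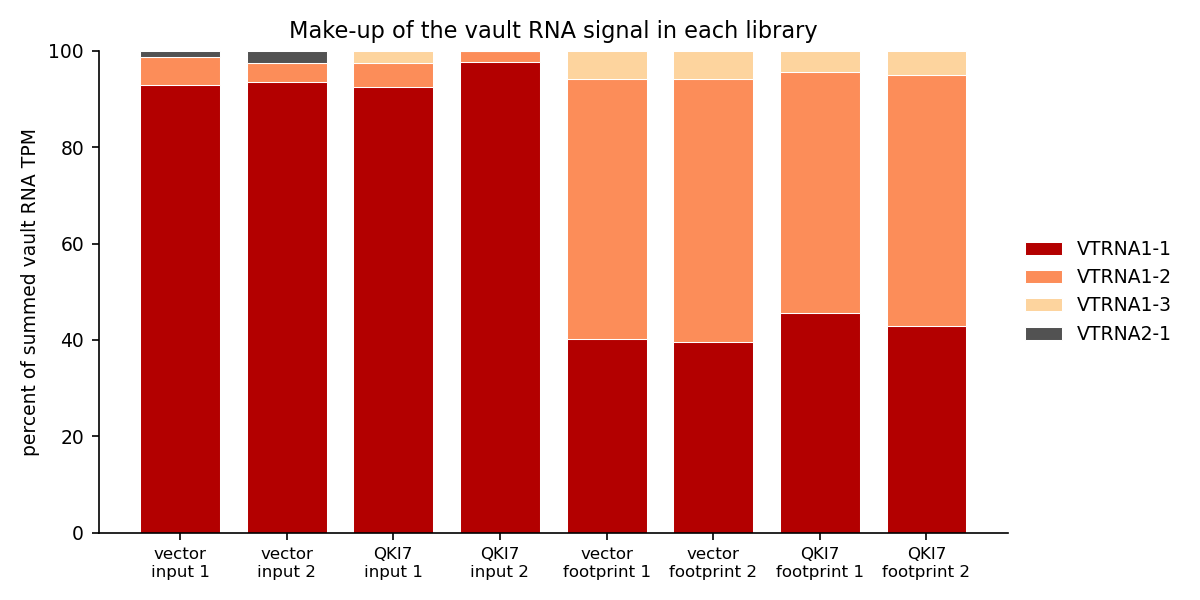
Share of the summed vault RNA TPM held by VTRNA1-1, VTRNA1-2, VTRNA1-3 and VTRNA2-1 in each of the 8 libraries. VTRNA1-1 holds over 90% of it in every input, and in footprints 39.8% on average with vector and 44.2% with QKI7, where VTRNA1-2 holds the most.

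In inputs, 1 of the 6 members tested was called between QKI7 and vector, where 44.6% of all entries tested were called: 39.1% were higher and 5.48% lower. That member was RNY4, which fell by 0.31 on the log2 scale (SE 0.0836; 95% interval -0.50 to -0.12; limma adjusted p = 0.0193), from 0.22 and 0.26 TPM to 0 in both libraries. All 4 of these values are at or near 0. The call was lost without any 1 of the 4 input libraries (adjusted p from 0.0634 to 0.0826), with changes from -0.33 to -0.29. The call was also lost under 4 scalings: mRNA and long RNA (-0.20), median of ratios (-0.07), quantile (-0.17) and ribosomal RNA out (-0.31). With ribosomal RNA out the change itself did not move, while input calls over all entries fell to 13. VTRNA1-1 had a change of -0.17 (95% interval -0.43 to 0.08; limma adjusted p = 0.233), and quantile normalization was the alternative that called it, at -0.44.

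The other 4 members tested in inputs had intervals that held 0, among them RNY5, listed at 0 in all 4 inputs. The fit gives each gene 1 spread shared by all groups, so every input test draws on the spread of footprints too. The widths for RNY5 and RNY1 in inputs come mostly from their footprints, and the input test of RNY5 is empty. With only the input groups fitted, 913 entries were called, against 2587 in the main fit. VTRNA1-2 had a change of -0.21 (95% interval -0.53 to 0.10), VTRNA1-3 of 0.21 (-0.08 to 0.51) and RNY1 of 0.26 (-0.54 to 1.06). VTRNA1-2 passed the threshold without QKI7 input replicate 1 (-0.42; limma adjusted p = 0.0255), and VTRNA1-3 without QKI7 input replicate 2 (0.42; adjusted p = 0.0119). Each of these rests on 1 QKI7 library, at 0.27 TPM for VTRNA1-2 and 0.34 TPM for VTRNA1-3. VTRNA2-1 and RNY4 were lower with QKI7 without overlap, 2 of 8 members where 11.6% of entries tested were. The excess of higher calls across the table moved with the scaling. As deposited 2269 entries rose and 318 fell, and with inputs scaled to spike-in control RNA 1470 rose and 311 fell. With equal sums of mRNA and long RNA the counts were 220 and 254. With median-of-ratios scaling they were 9 and 78, and with quantile normalization 399 and 410.

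Whether the QKI7 effect differed between footprints and inputs was tested as an interaction, the change in footprints minus the change in inputs. It was positive and called for VTRNA1-1, at 0.69 (SE 0.155; 95% interval 0.33 to 1.04; limma adjusted p = 0.0219), and for RNY4, at 0.54 (SE 0.118; 95% interval 0.27 to 0.82; adjusted p = 0.0199). These were 2 of 6 members tested, where 25.2% of all entries tested were called: 3.57% were positive and 21.6% negative. VTRNA1-1 combined its footprint rise with an input ratio of 0.878. For RNY4 the value rests on the inputs of 0.22 and 0.26 TPM with vector against 0 with QKI7 as much as on the footprints.

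For VTRNA1-2 the interaction was 0.49 (95% interval 0.04 to 0.93; limma adjusted p = 0.0939), and without QKI7 input replicate 1 it passed, at 0.69 (adjusted p = 0.0285). It was 0.40 (95% interval -0.08 to 0.87) for RNY5, -0.14 (-0.56 to 0.28) for VTRNA1-3 and -0.31 (-1.44 to 0.83) for RNY1. For RNY5, listed at 0 in every input, this value is its footprint change alone. The interaction call of VTRNA1-1 was lost without vector footprint replicate 1, vector footprint replicate 2 or QKI7 footprint replicate 1 (adjusted p from 0.0623 to 0.0702), at values from 0.62 to 0.70. It was also lost with ribosomal RNA out, at 0.44 (adjusted p = 0.0782), with a pseudocount of 0.1, at 0.70, and with no filter. That of RNY4 was lost without QKI7 input replicate 1, vector footprint replicate 2 or either QKI7 footprint (adjusted p from 0.0514 to 0.0574), at values from 0.42 to 0.55. Scaling moved it further, to 0.16 with median-of-ratios scaling (adjusted p = 0.465) and 0.31 with ribosomal RNA out (adjusted p = 0.207), and a pseudocount of 0.1 gave 2.01. The split of all interaction calls, 207 positive and 1254 negative, became 385 and 160 with equal sums of mRNA and long RNA.

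**Figure D5:**
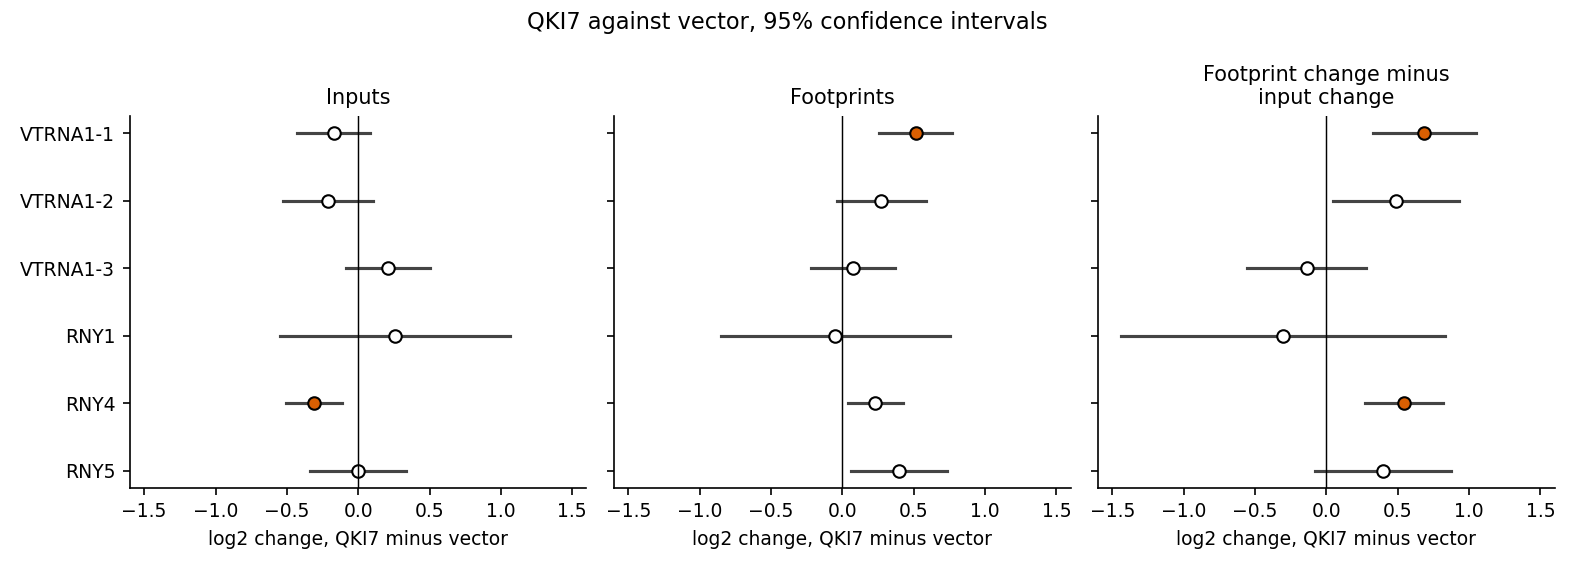
Log2 change between QKI7 and vector cells of the 6 vault and Y RNAs tested, with 95% intervals from limma, in inputs, in footprints, and as the footprint change minus the input change; filled points passed the threshold. VTRNA1-1 was called in footprints (0.51) and for the difference of changes (0.69), and RNY4 in inputs (-0.31) and for the difference (0.54).

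The genes around the members were read from lists chosen by role, whose counts stand beside 39.1% of all entries called higher and 5.48% lower in inputs, and 3.6% higher and 4.6% lower in footprints. Input calls here too rest on a spread shared with the footprints. All 3 genes of vault particle proteins rose in the QKI7 inputs, with a median change of 0.33 against 0.15 for all entries tested. MVP, the shell protein, went from 9.35 and 10.43 TPM to 13.9 and 13.57 TPM (0.44; limma adjusted p = 0.00285). TEP1 (0.33; adjusted p = 0.00468) and PARP4 (0.20; adjusted p = 0.0281) rose less. With equal sums of mRNA and long RNA none of these 3 calls held (MVP 0.24, TEP1 0.15, PARP4 0.04). With inputs scaled to spike-in control RNA those of MVP (0.38) and TEP1 (0.28) held and that of PARP4 (0.15) was lost. In footprints none of the 3 was called between constructs, with a median of 0.05. All 3 were lower in footprints than in inputs with vector, as were all 12 tested Y RNA-binding proteins, where 89.9% of all entries were.

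Of 7 tested partners and processing factors of vault RNA, 1 rose in inputs and none fell (median 0.05). It was DICER1, the ribonuclease that also cuts microRNA precursors, at 2.19 and 2.48 TPM with vector and 3.66 and 3.30 TPM with QKI7 (0.43; limma adjusted p = 0.00668). That call was lost with equal sums of mRNA and long RNA (0.24; adjusted p = 0.110) and with median-of-ratios scaling (0.14; adjusted p = 0.505). It held with inputs scaled to spike-in control RNA (0.38; limma adjusted p = 0.0136). In footprints DICER1 was again the 1 called, from 12.38 and 11.31 TPM to 65.92 and 61.7 TPM (2.34; adjusted p = 7.44e-06), with a list median of -0.06. DICER1 was also higher in footprints than in inputs with vector (1.95; limma adjusted p = 3.28e-08), where the other 6 tested on its list were lower. What its footprint reads stand for was not tested. NSUN2, which methylates vault RNA, was at 10.8 TPM with vector and 11.2 TPM with QKI7 on average in inputs. DICER1 is also the 1 gene called, in both comparisons, of the 3 tested on the list of ribonucleases that cut small RNA.

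Of 12 tested Y RNA-binding proteins, 2 rose and 1 fell in inputs (median 0.06). MOV10 (0.25) and SYNCRIP (0.20) rose, and nucleolin, NCL, fell by 0.37 (limma adjusted p = 0.0102). With equal sums of mRNA and long RNA the calls of MOV10 (0.08) and SYNCRIP (0.05) were lost and that of NCL held (-0.57). The gene of Ro60, listed as TROVE2, stayed below the filter at 0.43 and 0.30 TPM with vector and 0.52 and 0.47 TPM with QKI7. La, the product of SSB, was at 19.7 ± 3.41 TPM with vector and 21.2 ± 1.17 TPM with QKI7 in inputs (SD, n = 2 each). In footprints 1 of the 12 fell and none rose: HNRNPK, from 5.42 and 5.63 TPM to 4.16 and 4.26 TPM (log2 change -0.32; adjusted p = 0.0410).

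The transcription machinery of the members was read from its subunits and factors. Of 11 tested RNA polymerase III subunits, 3 rose and 2 fell in inputs, with a median of -0.03, and none was called in footprints. Of 10 tested transcription factors of that polymerase, 2 rose and 2 fell in inputs, with a median of 0.08. SNAPC1, a subunit of the complex that binds the upstream promoter elements of Y RNA, U6 and 7SK genes, fell by 0.43 in inputs (limma adjusted p = 0.00522) and by 0.72 in footprints (adjusted p = 0.00201), where it went from 4.73 and 4.61 TPM to 2.5 and 2.39 TPM. It was the 1 gene of that list called in footprints. Of 8 tested genes of 3′ end processing and decay of small RNA, 6 rose and none fell in inputs, with a median of 0.29. They included ZCCHC11, a terminal uridylyltransferase (0.49), USB1 (0.41), the exonuclease DIS3L2 (0.41) and the deadenylase PARN (0.35). With equal sums of mRNA and long RNA all 4 of these calls were lost, at 0.29, 0.22, 0.22 and 0.17 in the same order. With inputs scaled to spike-in control RNA the calls of ZCCHC11 (0.44), DIS3L2 (0.36) and PARN (0.31) held and that of USB1 (0.37) was lost. None of the 8 was called in footprints. From the other RNA polymerase III transcripts, BCYRN1 was the 1 called in inputs (0.35), and not with equal sums of mRNA and long RNA (0.16).

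The entries most like each member were found as those with the smallest root-mean-square difference in log2(TPM + 1) over the 8 libraries, each profile centred on its own mean. These libraries share 1 strong footprint-to-input contrast, which sets most of the likeness. For VTRNA1-1 they were LOC105371730 (0.19), MTRNR2L6 (0.25) and SNORD79 (0.25). For VTRNA1-2 they were the small nucleolar RNAs SNORD50A (0.33), SNORD31 (0.37) and SNORA46 (0.81). VTRNA1-3 was nearest to MTRNR2L1 (0.15), the histone pre-mRNA processing RNA RNU7-1 (0.29) and SNAR-A10 (0.35). RNY1 was nearest to SNORA36B (0.26), RPS14P3 (0.32) and H2AFZ (0.33). RNY4 was nearest to PCNA-AS1 (0.17), SNORA64 (0.18) and SCARNA8 (0.19), and RNY5 to the replication-dependent histone genes HIST1H3B (0.21) and HIST1H2AB (0.24) and to SNORA68 (0.25).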

How the data were processed

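The authors deposited 1 table of TPM values for 26902 entries in 8 libraries. Per the submitters' processing notes, the tools were STAR and RSEM 1.2.31 with GRCh38. Per the labels' protocols, libraries were depleted of ribosomal RNA and sequenced as single-end 51-nt reads. The sources used here do not say how reads matching several loci were shared. Depth is unknown, and no count test was possible.

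The 5806 entries that averaged 1 TPM or more over the libraries were analysed as log2(TPM + 1). The fit used limma 3.58.1 in R 4.3.3, with 4 group means over all 8 libraries, empirical Bayes moderation with a variance trend, and Benjamini-Hochberg adjustment at 0.05. Its code was tested on simulated data. Positions and gene types came from RefSeq tables (GRCh38.p14) by symbol: 23970 entries matched exactly, 1395 through an older symbol and 1537 not at all. No member had an entry in the sequence tables used.

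The members and lists were chosen with earlier results of these data known. Every member is described, up to 4 called genes of each list are named by size of change, and the 3 entries most alike are named for each member tested. Some further names were added for their role after their values were seen (NSUN2, SSB, TROVE2 and the lower entries among other RNA polymerase III transcripts). Alternatives were another pseudocount, other filters, 4 scalings, no trend, only the groups compared, a replicate block and leaving out each library. The scalings were equal sums of mRNA and long RNA, median of ratios, quantile normalization and, for inputs alone, spike-in control RNA. Removal of ribosomal RNA was added after seeing the data.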

Additional observations from a re-analysis of the deposited data

Results flagged for a closer look

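The test of whether the QKI7 effect differed between footprints and inputs called 2 of the 6 members tested. It called 25.2% of all entries tested, 3.57% as positive and 21.6% as negative. Both member calls were lost with no filter and with ribosomal RNA removed. VTRNA1-1 had an interaction of 0.69 on the log2 scale (limma adjusted p = 0.0219), with QKI7 over vector ratios of 1.43 in footprints and 0.878 in inputs. RNY4 had an interaction of 0.54 (limma adjusted p = 0.0199), with input values of 0.22 and 0.26 TPM in vector libraries and 0 in QKI7 libraries. That value fell to 0.16 with median-of-ratios scaling (adjusted p = 0.465), and 9 of 17 alternatives called it, against 11 of 17 for VTRNA1-1.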

How the results depend on the processing

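The number of members called in inputs, 1 in the main setting, was 2 with no filter, where RNY4 and VTRNA2-1 (-0.37; limma adjusted p = 0.0242) were called, and 0 with equal sums of mRNA and long RNA, with median-of-ratios scaling and with ribosomal RNA removed. In footprints the 1 call became 0 with no filter, with only the groups compared and with ribosomal RNA removed. The 2 interaction calls became 1 with a pseudocount of 0.1, where that of VTRNA1-1 was lost. They also became 1 with equal sums of mRNA and long RNA and with median-of-ratios scaling, where that of RNY4 was lost. Both were lost with no filter and with ribosomal RNA removed. With 1 library left out the counts ranged from 0 to 1 in inputs, from 0 to 1 in footprints and from 0 to 2 for the interaction, and stayed at 6 in both footprint-to-input comparisons. Signs that turned were those of footprint changes for VTRNA1-2 (-0.32, quantile), VTRNA1-3 (-0.09, median of ratios; -0.34, quantile; -0.18, ribosomal RNA removed) and RNY1 (0.48 without vector footprint replicate 2 and 0.29 without QKI7 footprint replicate 1, in a range of -0.58 to 0.48 with 1 library left out). Interaction signs turned for VTRNA1-2 (-0.20, quantile), VTRNA1-3 (0.072 without QKI7 input replicate 1, range -0.35 to 0.072) and RNY1 (0.22 without vector footprint replicate 2 and 0.03 without QKI7 footprint replicate 1, range -0.84 to 0.22). The causes were not tested. Under settings other than leaving out a library, the footprint-to-input count ranged from 4 to 7 with vector and from 4 to 6 with QKI7. The 7 included VTRNA2-1, lower in vector footprints with no filter (-0.37; limma adjusted p = 0.00554). The count of 6 with 1 library left out is no added support, since all but VTRNA1-1 entered through their footprint values alone.

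Over all entries, calls in inputs ranged from 13 (ribosomal RNA removed) to 5153 (no filter) around 2587, in footprints from 74 (only the groups compared) to 1914 (median of ratios) around 476, and for the interaction from 217 (pseudocount 0.1) to 1931 (without vector input replicate 2) around 1461. Footprint-to-input calls ranged from 1099 to 16314 around 5667 with vector and from 1105 to 17195 around 5703 with QKI7, lowest with a filter at 5 TPM and highest with none.

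Deviations of same-numbered libraries correlated little, at -0.09 between inputs and 0.06 between footprints. Between input and footprint they correlated at 0.01 with vector and 0.13 with QKI7. Each group of 2 libraries gives 1 deviation per entry, so this check cannot exclude pairing by number. With the replicate number as a block, 1 term shared by all groups, the members called stayed at 1 in inputs, 1 in footprints and 2 for the interaction. The limma adjusted p of VTRNA1-1 in footprints was then 0.0494. The 6 in each footprint-to-input comparison also stayed, but all except VTRNA1-1 had entered through their footprint values alone. The members with input values under 1 TPM have no measured depth behind their ratios.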
